A study of Mus musculus with 12 samples.

Results

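The enzymes that take amino acids apart were described here as 45 genes, chosen by name, in kidneys of mice with rhabdomyolysis-induced acute kidney injury (RIAKI) and in control kidneys. All 45 were found among the 41740 genes of the count tables. By route, 13 belong to branched-chain, 4 to aromatic, 6 to tryptophan, 8 to glycine and serine, 2 to sulfur and 8 to arginine or proline breakdown, and 4 (Ddo, Got1, Got2 and Hykk) stand outside these 6 routes. The arginine or proline genes include Ass1 and Asl, which in the kidney act in the synthesis of arginine. RIAKI was induced in male wild-type C57BL/6NCrl mice by an injection of 50% glycerol into the muscle of the left hind limb. The volume was 0.05 ml for every 10 g of weight, and control mice (sham) of the same strain and sex received saline. The study injected 10 mice per group, and 6 RIAKI and 6 control mice were sequenced. How these were chosen is not stated in the sources used here. Mice of both groups had been without drinking water for 19 h, were injected under isoflurane and received Rimadyl (carprofen, an analgesic) at 5 mg/kg at 0 and 3 h, and kidneys were taken at 24 h. Each sequenced mouse gave 1 library made from the 3′ ends of transcripts, in which every RNA molecule carries an index so that copies of it are not counted again.

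Amino acid breakdown removes the nitrogen of an amino acid and turns its carbon skeleton into intermediates that mitochondria can burn or that can be made into glucose. The liver is the best known site, but the cells of the kidney's proximal tubule, which take filtered amino acids back from the primary urine, also carry many of these enzymes. The kidney proximal tubule is in addition the main place where citrulline from the gut is made into arginine, and it holds enzymes for glycine, serine, proline and hydroxyproline. Many of the steps run inside mitochondria.

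Promoters were compared among the members because most of them moved in the same direction. RefSeq windows of 300 bases (250 before the start and 50 after it, GRCm38.p6, 5′ to 3′ on the strand of the gene) were at hand for 39 of the 45 members, in 46 windows. They were searched on both strands for the letters CAAAGTCCA (an HNF4A consensus), GTTAATNAT (an HNF1 motif), TGATGNAA (the amino acid response element that ATF4 and CHOP can bind) and CACGTG (the palindromic E-box). Capitals mark a match. Ass1 (chr2:31470020-31470319, plus strand) is shown because it is the most abundant member. Agxt2 (chr15:10358283-10358582, plus strand), Prodh2 (chr7:30493408-30493707, plus strand) and Got1 (chr19:43524556-43524855, minus strand) are shown for their matches. The matches of Prodh2 and Got1 are on the opposite strand, so that the reverse complement is in capitals.
Ass1: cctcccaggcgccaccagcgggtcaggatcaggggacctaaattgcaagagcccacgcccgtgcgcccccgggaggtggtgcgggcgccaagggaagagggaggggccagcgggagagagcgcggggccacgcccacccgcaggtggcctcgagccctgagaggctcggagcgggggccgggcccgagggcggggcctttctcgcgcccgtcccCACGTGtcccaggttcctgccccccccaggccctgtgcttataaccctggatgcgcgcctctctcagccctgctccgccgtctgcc
Agxt2: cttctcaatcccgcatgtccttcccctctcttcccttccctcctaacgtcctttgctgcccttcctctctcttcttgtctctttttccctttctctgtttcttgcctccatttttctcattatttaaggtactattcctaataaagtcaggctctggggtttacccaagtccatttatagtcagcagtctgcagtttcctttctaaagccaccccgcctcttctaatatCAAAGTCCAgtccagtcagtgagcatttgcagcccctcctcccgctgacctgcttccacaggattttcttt
Prodh2: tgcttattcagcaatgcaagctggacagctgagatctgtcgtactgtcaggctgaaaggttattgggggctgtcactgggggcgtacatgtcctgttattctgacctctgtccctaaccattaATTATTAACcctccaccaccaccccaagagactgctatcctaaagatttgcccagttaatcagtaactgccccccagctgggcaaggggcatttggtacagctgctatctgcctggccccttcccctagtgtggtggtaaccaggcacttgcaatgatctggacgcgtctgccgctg
Got1: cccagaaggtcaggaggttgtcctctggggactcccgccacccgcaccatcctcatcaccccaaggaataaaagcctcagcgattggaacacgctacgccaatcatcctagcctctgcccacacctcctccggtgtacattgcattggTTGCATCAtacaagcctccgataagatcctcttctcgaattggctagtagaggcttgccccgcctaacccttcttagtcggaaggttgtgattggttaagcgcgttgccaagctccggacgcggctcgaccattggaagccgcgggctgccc

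The E-box was found in 5 of 39 members with a window (Ass1, Cbs, Dao, Ddo and Mccc2), against 8.09% of all genes with a window. The HNF4A letters were found in 1 member (Agxt2, 0.555% of all genes), the HNF1 letters in 2 (Got2 and Prodh2, 0.940% of all genes) and the amino acid response element in 1 (Got1, 4.51% of all genes). None of these counts was tested, and a match is a description of the letters only.

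Total exon reads per library ranged from 1579157 to 1911871 in RIAKI and from 1673329 to 2073959 in controls, of which mitochondrial ribosomal RNA took 34.1% to 58.9% in RIAKI and 36.6% to 52.7% in controls. No 2 libraries held identical counts. The libraries numbered 1 and 2 of both groups lay together on the second principal component, which held 9.37% of the variance, at 15.98 to 24.96 against -25.19 to -2.16 for the other 8 libraries. The labels give no batch. Kidney tubule markers changed along with the members. Of 14 markers of the proximal tubule S1 and S2 segments 13 fell (median log2 fold change -1.97), and their summed level was 6944 to 8772 CPM (exon reads scaled to a common library size by TMM) in RIAKI and 13981 to 19490 CPM in controls. Most of that sum came from Gpx3, which fell less than the median marker (-1.12). Of 8 markers of the S3 segment 7 fell (median -2.28), with a summed level of 119 to 185 CPM in RIAKI and 746 to 1024 CPM in controls. Other tubule segments were lower too, with 5 of 6 markers of the thick ascending limb (median -1.91), 3 of 4 of the distal convoluted tubule (-2.17) and 7 of 9 of the collecting duct (-1.20). Among 6 podocyte markers 1 was higher and 0 lower (-0.002), and among 7 endothelial markers 1 was lower and 0 higher (-0.004). Among 5 hepatocyte markers tested 2 were lower and 1 higher (-1.10). Red cell markers were lower for 4 of 5 genes (-0.90), while of 7 macrophage markers tested 3 were higher and 1 lower (0.52). Markers of injured tubule rose for 9 of 10 genes, led by Havcr1 (log2 fold change 5.15) and Lcn2 (4.91). Of the neutrophil markers 3 of 4 tested were higher, at a summed level of 17.1 to 49.4 CPM in RIAKI and 2.12 to 5.25 CPM in controls, and of the skeletal muscle markers 4 of 5 were at 0 in every library.

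The 45 genes as a group were lower in RIAKI. Their summed level was 1075 to 1274 CPM (median 1111) in the RIAKI libraries and 2975 to 3428 CPM (median 3263) in the control libraries, so that every RIAKI library lay below every control library. The mean in RIAKI, 1132 ± 73.8 CPM, was 35.0% of the control mean of 3238 ± 183 CPM (SD, n = 6 each). Tested gene by gene with the quasi-likelihood test of edgeR and Benjamini-Hochberg adjustment at 0.05 over 13536 genes, 40 members were lower, 1 was higher (Arg2) and 4 did not pass (Kynu, Glud1, Got1 and Got2). Over all genes tested, 18.8% were called lower and 17.4% higher. For 35 members every RIAKI library was below every control library, and for 1, Arg2, every RIAKI library was above, where all genes gave 10.4% and 8.92%. The median log2 fold change of the members was -1.48, against -0.01 over all genes tested, and 35 members had a log2 fold change below -1, as had 16.4% of all genes. In whole-kidney RNA, fewer cells of a type and less RNA per cell cannot be told apart, and the part of the falling proximal tubule markers in these values was not tested beyond the scaling to those markers given below.

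**Figure D1:**
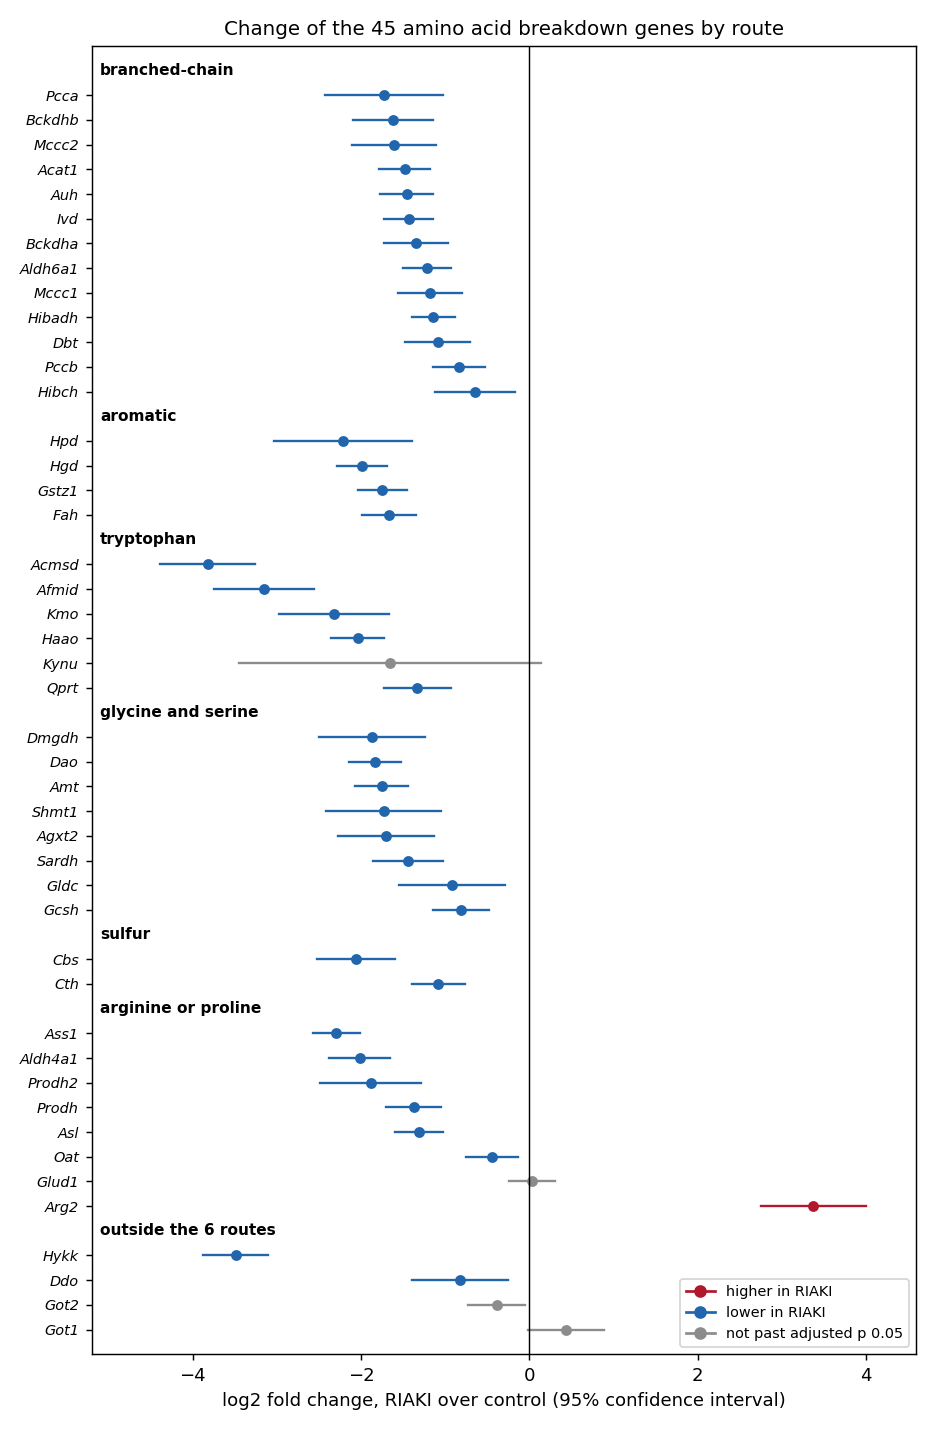
Log2 fold change of each of the 45 members, RIAKI over control, with its 95% confidence interval from edgeR, grouped by route and sorted within each route. Intervals are not adjusted for the number of genes, and colours follow the adjusted p. 40 members lie to the left of 0 in blue, Arg2 lies at 3.38, and Kynu, Glud1, Got1 and Got2 are grey.

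All 13 branched-chain members were lower (median log2 fold change -1.35), as were all 4 aromatic members (-1.87), all 8 of glycine and serine (-1.72) and both of sulfur (-1.57). In the tryptophan route 5 of 6 were lower (-2.18), and in the arginine or proline route 6 of 8 were lower and 1 higher (-1.34). Of the 4 genes outside the routes 2 were lower (-0.61).

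The branched-chain route degrades leucine, isoleucine and valine. Acat1, the thiolase that closes isoleucine breakdown and also handles ketone bodies, had 76.6 to 116 CPM (median 93.5) in RIAKI, against 216 to 338 CPM (median 251) in controls. Ivd, isovaleryl-CoA dehydrogenase of the leucine branch, had 22.1 to 28.6 CPM (median 26.4) in RIAKI, against 61.7 to 80.2 CPM (median 69.8) in controls. The groups did not overlap for either gene, and the RIAKI libraries lay close together. Acat1 fell by 1.48 on the log2 scale (SE 0.15, adjusted p = 2.24e-09, edgeR with Benjamini-Hochberg adjustment) and Ivd by 1.43 (SE 0.14, adjusted p = 1.83e-09). The complex that commits all 3 amino acids to breakdown, branched-chain keto acid dehydrogenase, was lower in each measured subunit, with log2 fold changes of -1.35 for Bckdha and -1.62 for Bckdhb, which form its first component, and -1.09 for Dbt, its core. In the leucine branch, both subunits of methylcrotonyl-CoA carboxylase, Mccc1 (-1.18) and Mccc2 (-1.61), and the hydratase Auh (-1.46) also fell. In the valine branch, Hibadh had the highest level of the 3 measured enzymes and fell to 109 ± 9.38 CPM in RIAKI, against 240 ± 9.05 CPM in controls (SD, n = 6 each). The semialdehyde dehydrogenase Aldh6a1 changed by -1.22 on the log2 scale.

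Hibch, the hydrolase just before Hibadh, showed the smallest fall of the branch. It had 5.15 to 15.0 CPM in RIAKI and 11.8 to 24.8 CPM in controls, and the groups overlapped (log2 fold change -0.65, SE 0.23, adjusted p = 0.0283, edgeR with Benjamini-Hochberg adjustment). The call was lost with DESeq2 (adjusted p = 0.0501), with library totals alone (adjusted p = 0.0987) and without any of 5 libraries (RIAKI 1, 2 and 5 and control 3 and 5), where the adjusted p was 0.0503 to 0.119. Propionyl-CoA carboxylase, at which the isoleucine and valine branches meet, was lower in both subunits, Pcca (-1.72, SE 0.34) and Pccb (-0.84, SE 0.15). The 2 subunits differed in their spread. Pcca ranged from 36.3 to 138 CPM in RIAKI and from 34.2 to 354 CPM in controls, with the lowest control library (5) below every RIAKI library. Pcca shares 241 exon bases with Ggact on the opposite strand, which had 1207 reads in RIAKI and 3881 in controls, and the sources used here do not say whether the counting used strand. The ratio of Pcca to Ggact reads was 0.474 to 0.640 in RIAKI and 0.322 to 0.725 in controls, so that both genes went up and down together across the libraries and their reads may not be separable.

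After removal of its amino group, tyrosine is broken down by Hpd, Hgd, Gstz1 and Fah, in this order. Hgd, homogentisate dioxygenase, had 18.2 to 28.8 CPM (median 21.5) in RIAKI, against 81.1 to 99.7 CPM (median 87.5) in controls. Gstz1, the maleylacetoacetate isomerase, had 20.4 to 31.4 CPM (median 29.8) in RIAKI, against 86.7 to 102 CPM (median 90.1) in controls. The lowest control library was far above the highest RIAKI library for both. Hgd fell by 1.99 on the log2 scale (SE 0.15, adjusted p = 4.42e-12, edgeR with Benjamini-Hochberg adjustment) and Gstz1 by 1.74 (SE 0.15, adjusted p = 4.82e-11). Fah, whose products are fumarate and acetoacetate, fell by 1.66 (SE 0.16) and Hpd, which makes homogentisate, by 2.22 (SE 0.40) on 19 reads in RIAKI and 96 in controls.

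The tryptophan members had the lowest median change of the 6 routes. Acmsd (chr1:127729413-127767978, plus strand) stands at a fork of the kynurenine route, where it turns a shared intermediate away from quinolinate and so from NAD. It had 0 to 3.86 CPM (median 2.02) in RIAKI, against 20.8 to 34.3 CPM (median 30.4) in controls, from 22 reads in RIAKI and 330 in controls. RIAKI library 3 had no read of Acmsd. The log2 fold change of -3.82 (SE 0.28, adjusted p = 2.84e-12, edgeR with Benjamini-Hochberg adjustment) left 7.07% of the control level. Haao, which makes that intermediate from hydroxyanthranilate, had 13.7 to 24.3 CPM (median 16.5) in RIAKI, against 67.4 to 76.9 CPM (median 73.8) in controls. The groups were well apart, with the control libraries close together (log2 fold change -2.04, SE 0.16, adjusted p = 8.47e-12). Qprt, on the other arm of the fork, makes the NAD precursor from quinolinate. It had 5.51 to 11.8 CPM (median 10.1) in RIAKI, against 19.7 to 27.2 CPM (median 23.2) in controls, and its log2 fold change was -1.33 (SE 0.19).

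Earlier steps of the kynurenine route are carried out by Afmid, Kmo and Kynu. Kmo, kynurenine monooxygenase, fell by 2.32 on the log2 scale (SE 0.32). Afmid, which releases kynurenine, was listed at -3.15 (SE 0.29), but only 26.3% of its exon reads mapped to a single place and it shares 1566 exon bases on the same strand with Gm20708, which was at -2.89, so its value is uncertain. With only reads mapped to a single place Afmid was at -2.94. Kynu, kynureninase, had 4 reads in RIAKI and 15 in controls. All 4 were in RIAKI library 6 (2.21 CPM) and the other 5 RIAKI libraries were at 0, while the controls had 0 to 2.34 CPM with 2 of them at 0. It did not pass the test (log2 fold change -1.66, SE 0.88, adjusted p = 0.146, edgeR with Benjamini-Hochberg adjustment). Without RIAKI library 6, whose removal leaves that group at 0, it did (adjusted p = 0.00713).

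Glycine is split in mitochondria by the glycine cleavage system, of which 3 components were members. Amt, the aminomethyltransferase, had 49.1 to 59.5 CPM (median 56.1) in RIAKI, against 144 to 259 CPM (median 166) in controls. Dao, the peroxisomal oxidase of D-amino acids such as D-serine, had 21.6 to 34.3 CPM (median 28.4) in RIAKI, against 82.4 to 125 CPM (median 97.2) in controls. Neither gene had overlapping groups. Amt fell by 1.75 on the log2 scale (SE 0.15, adjusted p = 1.33e-10, edgeR with Benjamini-Hochberg adjustment) and Dao by 1.84 (SE 0.15, adjusted p = 4.72e-11). The other 2 components had smaller changes. Gcsh, the hydrogen carrier, had 21.5 to 49.7 CPM in RIAKI and 52.8 to 76.2 CPM in controls (log2 fold change -0.81, SE 0.16). Gldc, the decarboxylase, had 1.66 to 7.71 CPM in RIAKI and 3.28 to 12.7 CPM in controls, with overlapping groups (log2 fold change -0.92, SE 0.31, adjusted p = 0.0190, edgeR with Benjamini-Hochberg adjustment). The call of Gldc was lost with library totals alone and without RIAKI library 6 or control library 2 (adjusted p = 0.0807, 0.0515 and 0.0515), and in the 8 libraries not numbered 1 or 2 (adjusted p = 0.0633). Among the remaining members, Dmgdh (-1.87) and Sardh (-1.44), which strip methyl groups from dimethylglycine and sarcosine, Shmt1 (-1.73), the cytosolic serine hydroxymethyltransferase, and Agxt2 (-1.70), a mitochondrial aminotransferase that uses glyoxylate, fell.

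Transsulfuration carries the sulfur of homocysteine to cysteine through Cbs and then Cth. Cbs, cystathionine beta-synthase, had 3.31 to 8.56 CPM (median 6.41) in RIAKI, against 18.4 to 32.1 CPM (median 27.8) in controls. Cth, cystathionine gamma-lyase, had 24.3 to 39.7 CPM (median 27.8) in RIAKI, against 54.3 to 76.2 CPM (median 65.6) in controls. For both, every RIAKI library was below every control library. Cbs fell by 2.06 (SE 0.23, adjusted p = 1.49e-08, edgeR with Benjamini-Hochberg adjustment) and Cth by 1.08 (SE 0.15, adjusted p = 1.39e-06) on the log2 scale.

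Ass1 (chr2:31470207-31520672, plus strand), argininosuccinate synthase, joins citrulline and aspartate in the kidney's synthesis of arginine. It was the most abundant member in the 3′ counts, which are 1 read per molecule and are not divided by length, with 12.2% of the members' summed mean CPM in RIAKI and 20.8% in controls. Its values were 115 to 156 CPM (median 141) in RIAKI, against 642 to 708 CPM (median 675) in controls. The control libraries hardly differed from each other, and each RIAKI library was far below them, at 20.4% of the control level in the fit (adjusted p = 3.48e-14, edgeR with Benjamini-Hochberg adjustment). This gene alone made up 25.5% of the difference between the groups in the summed level of the members. Asl, which splits argininosuccinate into arginine and fumarate in the following step, had 28.5 to 33.6 CPM (median 30.0) in RIAKI, against 61.3 to 86.01 CPM (median 76.6) in controls, and fell by 1.31 on the log2 scale (SE 0.14, adjusted p = 8.13e-09, edgeR with Benjamini-Hochberg adjustment).

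Arg2 (chr12:79130777-79156301, plus strand), the mitochondrial arginase that makes ornithine and urea from arginine, was the only member that rose. It had 18.2 to 25.9 CPM (median 20.9) in RIAKI, against 0 to 3.28 CPM (median 2.36) in controls. All 6 RIAKI libraries were far above all controls, of which library 1 had no read. The log2 fold change was 3.38 (SE 0.30, adjusted p = 2.38e-10, edgeR with Benjamini-Hochberg adjustment), from 228 reads in RIAKI and 22 in controls. Arg2 shares 285 exon bases with Vti1b on the opposite strand, and Vti1b, with 641 reads in RIAKI and 616 in controls, did not pass the test (log2 fold change 0.08, SE 0.16, adjusted p = 0.762).

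Proline and ornithine both lead to glutamate through Aldh4a1, the dehydrogenase of pyrroline carboxylate. Aldh4a1 had 8.12 to 12.6 CPM (median 9.58) in RIAKI, against 32.96 to 49.5 CPM (median 39.6) in controls (log2 fold change -2.02, SE 0.18, adjusted p = 1.84e-10, edgeR with Benjamini-Hochberg adjustment). Prodh, proline dehydrogenase, had 24.7 to 32.6 CPM (median 30.3) in RIAKI, against 57.1 to 98.7 CPM (median 70.3) in controls (log2 fold change -1.37, SE 0.16). No RIAKI library reached the control range for either gene. Prodh2, which starts hydroxyproline breakdown, was at -1.89 (SE 0.29). Oat, ornithine aminotransferase, changed least among the members called lower. It had 20.9 to 30.9 CPM (median 25.8) in RIAKI, against 29.0 to 39.4 CPM (median 35.1) in controls, and the groups overlapped. Its log2 fold change was -0.45 (SE 0.15, adjusted p = 0.0212, edgeR with Benjamini-Hochberg adjustment), and the call was lost with library totals alone (adjusted p = 0.173) and without RIAKI library 2 or control library 2 (adjusted p = 0.0531 and 0.0543), and in the 8 libraries not numbered 1 or 2 (adjusted p = 0.0931).

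Glud1, glutamate dehydrogenase, at which many of these routes hand over their nitrogen, had 59.9 to 75.7 CPM (median 66.7) in RIAKI, against 53.6 to 72.6 CPM (median 68.6) in controls. The 2 sets of libraries lay over each other, and the log2 fold change was 0.03 with a 95% confidence interval of -0.24 to 0.31 (adjusted p = 0.878, edgeR with Benjamini-Hochberg adjustment). The lower bound lies well above the changes of Aldh4a1 and Prodh.

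The aspartate aminotransferases Got1, in the cytosol, and Got2, in mitochondria, did not pass the test either. Got1 had 14.2 to 33.8 CPM (median 16.3) in RIAKI, against 12.7 to 20.3 CPM (median 14.7) in controls. The spread in RIAKI came from libraries 1 and 2, at 33.8 and 29.2 CPM, while the other 4 lay within the range of the controls (log2 fold change 0.43, SE 0.22, adjusted p = 0.131, edgeR with Benjamini-Hochberg adjustment). Got2 had 20.9 to 41.6 CPM (median 29.1) in RIAKI, against 33.2 to 45.9 CPM (median 38.4) in controls. RIAKI libraries 1 and 2 were again the highest of their group and the only ones within the control range (log2 fold change -0.39, SE 0.17, adjusted p = 0.0679). Got2 passed the test as lower without RIAKI library 1 (adjusted p = 0.0190) and with a term for the libraries numbered 1 and 2 (adjusted p = 0.0296).

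Hykk (chr9:54917283-54949924, plus strand), the kinase of hydroxylysine, which comes from collagen, had 5.51 to 18.1 CPM (median 9.89) in RIAKI, against 108 to 140 CPM (median 114) in controls. Every RIAKI library was far below the lowest control library. The log2 fold change of -3.49 (SE 0.19, adjusted p = 5.58e-15, edgeR with Benjamini-Hochberg adjustment) left 8.91% of the control level, and it was the second largest fall after Acmsd. Ddo, the oxidase of D-aspartate, had 1.65 to 9.37 CPM (median 6.61) in RIAKI, against 5.91 to 15.3 CPM (median 10.9) in controls, with overlapping groups. Its log2 fold change was -0.82 (SE 0.28, adjusted p = 0.0193), and the call was lost with library totals alone (adjusted p = 0.0607) and without RIAKI library 2 or control library 5 (adjusted p = 0.0548 and 0.0536), and in the 8 libraries not numbered 1 or 2 (adjusted p = 0.154).

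**Figure D2:**
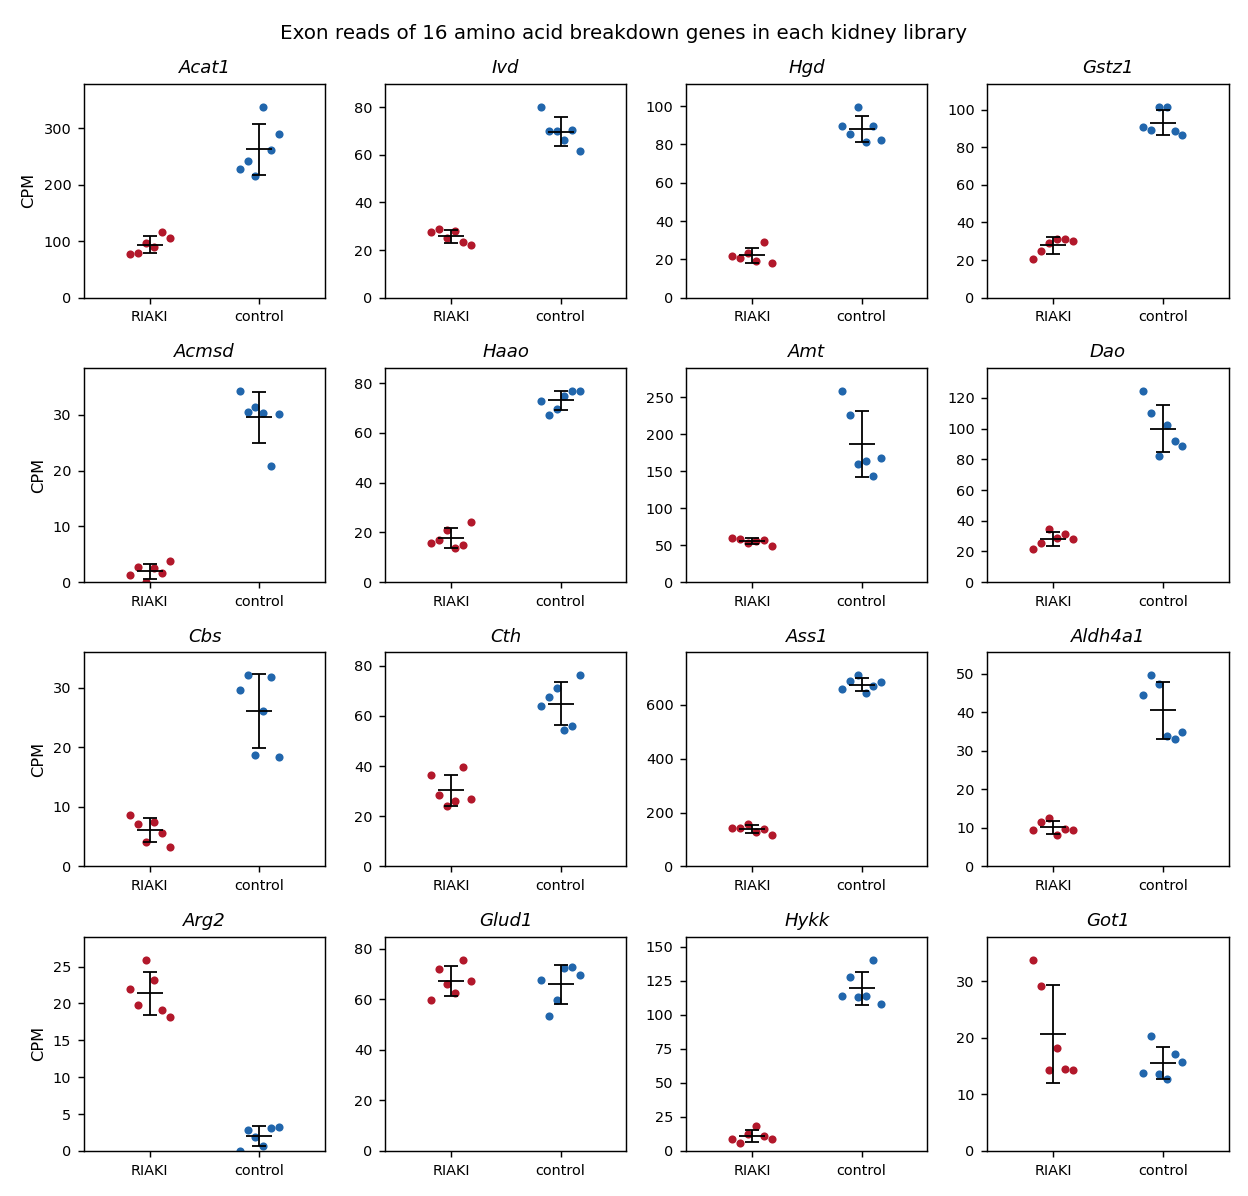
Exon reads in CPM, scaled by TMM, of 16 members in each of the 6 RIAKI libraries (red) and 6 control libraries (blue), with the mean and SD in black and each axis starting at 0. In 13 panels the RIAKI points lie below all control points, in that of Arg2 above them (18.2 to 25.9 CPM in RIAKI against 0 to 3.28 CPM in controls), and in those of Glud1 and Got1 the groups overlap.

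Whether neighbouring enzymes changed unequally was tested on the log2 ratio of their CPM + 1 in each library, for 24 pairs, with a 2-sided exact permutation test over all assignments of the 12 libraries to the groups (smallest possible p = 0.00216) and Benjamini-Hochberg adjustment over the pairs. Past an adjusted p of 0.05 were 12 pairs, and 6 of them had groups that did not overlap in the ratio, each with p = 0.00216 and adjusted p = 0.00866 in this exact test. The fork at Acmsd shifted most. The log2 ratio of Acmsd to Qprt was -1.92 ± 1.07 in RIAKI and 0.31 ± 0.22 in controls (SD, n = 6 each), a difference of -2.23. Haao over Acmsd was 2.79 ± 0.87 in RIAKI and 1.29 ± 0.29 in controls. In arginine synthesis, Ass1 over Asl was 2.14 ± 0.19 in RIAKI and 3.15 ± 0.16 in controls, a difference of -1.02. Oat over Aldh4a1 was 1.26 ± 0.36 in RIAKI and -0.19 ± 0.31 in controls, a difference of 1.45, and Prodh over Aldh4a1 differed by 0.58. Got1 over Got2 was -0.54 ± 0.26 in RIAKI and -1.29 ± 0.15 in controls, a difference of 0.75, although neither gene passed the test on its own.

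Pairs of subunits did not pass the threshold. The difference in the log2 ratio was 0.12 for Bckdha over Bckdhb (exact permutation test, adjusted p = 0.687), 0.47 for Mccc1 over Mccc2 (adjusted p = 0.141) and -0.69 for Pcca over Pccb (adjusted p = 0.361), and an unequal change was not detectable for these at this depth. The latter 2 were near in size to Prodh over Aldh4a1 (0.58), which passed. Pcca over Pccb had an SD of 1.34 in controls, and reads of Pcca may not be separable from those of Ggact. In the glycine cleavage system, Amt fell further than Gcsh, with a difference of -0.88 (exact permutation test, adjusted p = 0.0289), a call that was lost without any of 6 libraries (RIAKI 1, 3, 4 and 6 and control 1 and 2), at an adjusted p of 0.0519 to 0.0649. The pairs Cbs over Cth, Gldc over Amt, Dao over Ddo, Kmo over Kynu and Kynu over Haao passed but depended on the pseudocount or on single libraries.

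**Figure D3:**
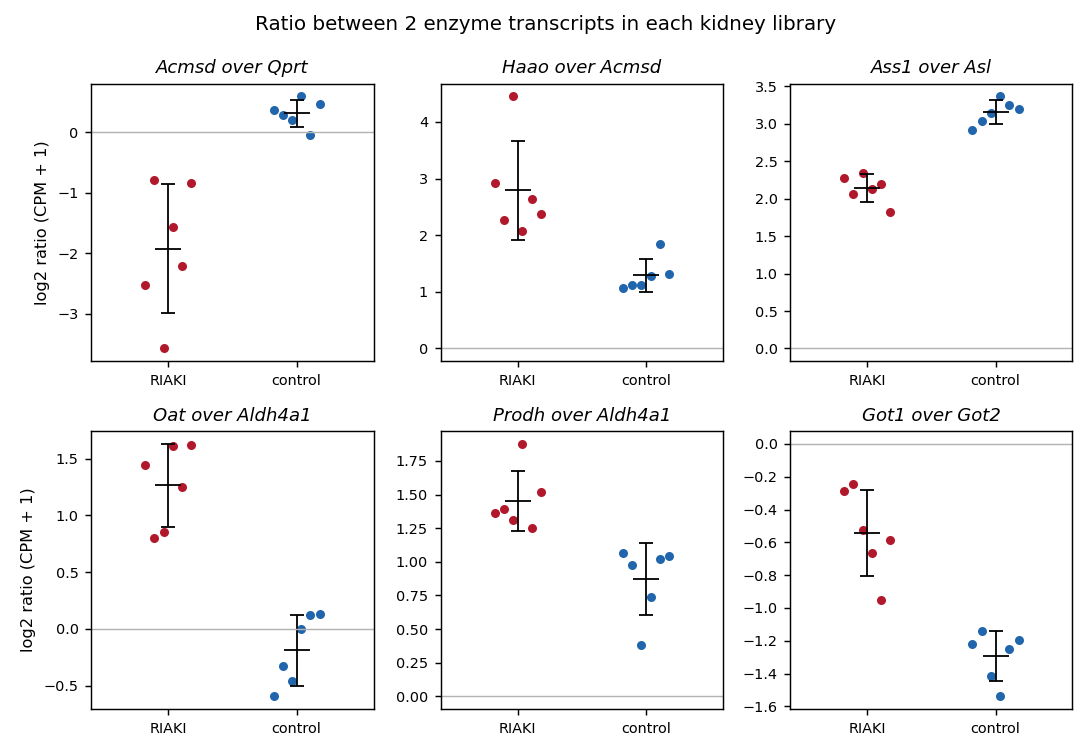
Log2 ratio of CPM + 1 between 2 members in each RIAKI library (red) and control library (blue), with the mean and SD in black, for the 6 pairs whose groups did not overlap. The ratio of Acmsd to Qprt averaged -1.92 in RIAKI and 0.31 in controls, and that of Ass1 to Asl averaged 2.14 in RIAKI and 3.15 in controls.

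To set the members beside transcripts of proximal tubule cells, the same test was run with libraries scaled to 14 markers of the S1 and S2 segments. On this scale 0 stands for no change relative to a factor taken from the markers in each library. That factor is a median within each library, so 0 need not equal the markers' median log2 fold change (-1.97). The markers' own log2 fold changes under TMM scaling ran from -3.06 to 0.14. Of all genes 78.7% were called higher and 1.35% lower. Of the members 17 were called higher, 4 lower and 24 passed in neither direction, and the members' median log2 difference was 0.33. The 4 called lower were Acmsd (-2.03, SE 0.34), Hykk (-1.69, SE 0.23), Afmid (-1.38, SE 0.35) and Ass1 (-0.49, SE 0.20). At the other end stood Arg2 (5.18), Got1 (2.24), Glud1 (1.84), Got2 (1.40) and Oat (1.38). None of the 4 aromatic members passed in either direction (median -0.06), while 6 of 13 branched-chain members were called higher (median 0.44). The markers of the S3 segment fell further. Scaled to 7 of these 8 markers, those with reads in every library, 29 members were higher and 3 lower, where 85.4% and 0.739% of all genes were. The 3 lower were Acmsd, Hykk and Afmid, while Ass1 was not called (-0.02, SE 0.21). Neither scaling tells fewer cells from less RNA per cell.

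**Figure D4:**
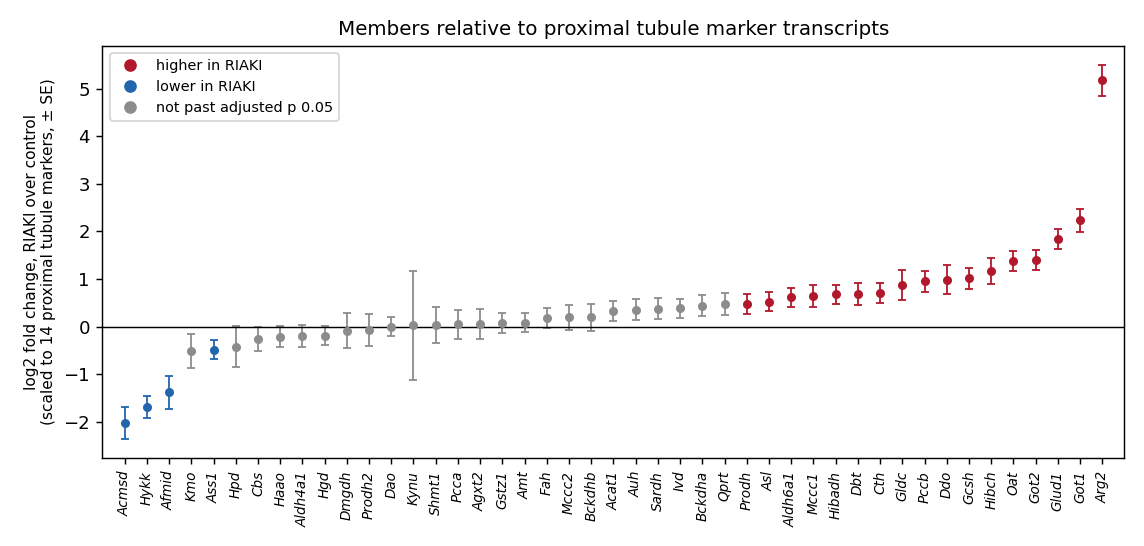
Log2 fold change of each member, RIAKI over control, after scaling the libraries to 14 proximal tubule S1 and S2 markers, with SE, sorted from lowest to highest. Blue points (Acmsd, Hykk, Afmid, Ass1) were called lower, 17 red points higher, and 24 grey points did not pass the test. The median of all 45 members was 0.33.

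Reads in introns, a second count from the same libraries, were sufficient to test 39 members. Of 10182 genes tested in introns 5.31% were called lower and 3.14% higher. Of the members 9 were lower (Bckdha, Aldh6a1, Hgd, Haao, Afmid, Agxt2, Ass1, Prodh2 and Hykk), 2 were higher and 28 did not pass, and the median was -0.74 in introns beside -1.48 in exons of the same genes and -0.11 in introns of all genes. Introns of Ass1 had 24 reads in RIAKI and 144 in controls (log2 fold change -2.46, SE 0.37), those of Agxt2 15 in RIAKI and 136 in controls (-3.13, SE 0.40) and those of Hgd 13 in RIAKI and 123 in controls (-3.09, SE 0.42), each with a point estimate below that of the exons. Introns of Hykk changed less than its exons by point estimate, with 14 reads in RIAKI and 50 in controls (-1.73, SE 0.49). For Acmsd, with 9 intron reads in RIAKI and 15 in controls, the test did not pass (-0.67, SE 0.67). Introns of Arg2 held 15 reads over the 6 RIAKI libraries, in 5 of them, and 0 over the 6 controls. Bckdhb went in opposite directions, with 246 intron reads in RIAKI and 103 in controls (log2 fold change 1.33, SE 0.28, adjusted p = 0.000146, edgeR with Benjamini-Hochberg adjustment) beside a fall of its exon reads by 1.62. Whether the reads of an intron come from the same transcript as those of the exons was not tested.

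**Figure D5:**
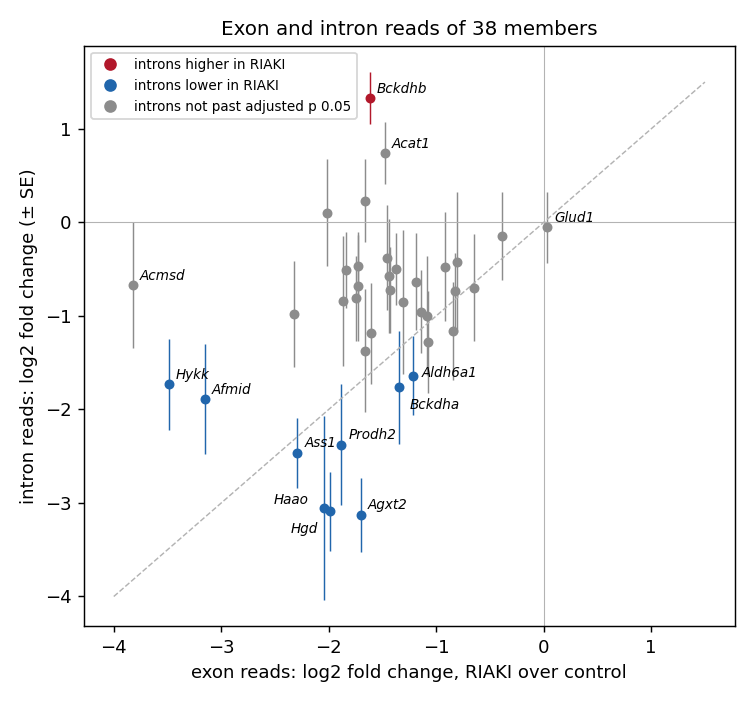
Log2 fold change of intron reads (vertical, with SE) against that of exon reads (horizontal), RIAKI over control, for 38 members; Arg2 is left out because its controls had 0 intron reads. The dashed line marks equal change. Hgd, Agxt2 and Ass1 lie at or below it, and Bckdhb lies at 1.33 for introns and -1.62 for exons.

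A wider list of 74 enzyme genes of amino acid breakdown and synthesis, none of them members, was set beside the 45. Of these 67 could be tested, and 47 were lower, 8 higher and 12 did not pass (median log2 fold change -1.09). Over all genes tested, 18.8% were called lower and 17.4% higher. Neighbours of the members fell with them, among them Aadat (-2.57), a kynurenine aminotransferase, Csad (-2.42), which makes the taurine precursor, Abat (-2.48), the GABA aminotransferase, Pipox (-1.93), which oxidizes pipecolate and sarcosine, and Pcbd1 (-1.87) and Qdpr (-1.64), which recycle the cofactor of aromatic hydroxylation. The histidine enzyme Uroc1 (-3.88), urocanate hydratase, and Aspa (-2.70), which splits acetylaspartate, fell further still. The 8 that rose were a smaller share than the 17.4% over all genes, and contained synthesis enzymes. Phgdh (1.73), Psat1 (1.25) and Psph (0.63) form the serine synthesis route, and each was higher in RIAKI, where all 8 glycine and serine members were lower. Asns (2.55), asparagine synthetase, and Gpt2 (1.14), the mitochondrial alanine aminotransferase, were likewise higher. Ado (0.69) and Ethe1 (0.47), both of which oxidize sulfur compounds, also rose.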

How the data were processed

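Kidney RNA of 6 RIAKI and 6 control mice was sequenced from the 3′ end of transcripts (QIAseq UPX kit) with 1 library per mouse. The authors demultiplexed with bcl2fastq, trimmed and deduplicated reads by molecular index in CLC Genomics Workbench and mapped them to GRCm38 with Ensembl genes. The deposited tables give raw counts of these reads for each gene, separately for exons, for exon reads with a single mapping place and for introns. The deposited TPM and RPKM columns were not used.

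Exon counts were fitted in edgeR 4.0.16 (R 4.3.3, quasi-likelihood test), with full library totals scaled by TMM, for genes with at least 10 counts over the 12 libraries, and with Benjamini-Hochberg adjustment at 0.05 over all genes tested. The study used the exact test of CLC (Robinson and Smyth). CPM are counts scaled by TMM. Groups and replicate numbers came from the sample labels. Intron counts were fitted likewise with the exon library sizes, and enzyme pairs were compared on log2((CPM + 1)/(CPM + 1)). Scaling to markers used the median over markers of the count divided by the geometric mean of the marker, for markers with reads in every library. Overlaps of exons came from GENCODE and promoters from RefSeq. Per-library values are given for the 2 members of each route with the smallest p, for every member called higher or not called, and for members of the pairs described; of the other enzyme genes and markers, the called ones with the smallest p are named. Not every such gene or sequence is reported. Members, routes, pairs and lists were chosen with earlier results of these data known. The tests were repeated with that exact test, voom in limma 3.58.1, DESeq2 1.42.0, robust dispersions, RLE, upper quartile and no scaling, other count minimums, a block for replicate number, other pseudocounts, and each library left out in turn. The scripts were tested on simulated counts. Counting error and the spread between 6 mice limit precision, and genes under about 10 counts in all were not tested.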

Additional observations from a re-analysis of the deposited data

Results flagged for a closer look

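Among 90 sets of 6 libraries (45 members in 2 groups), 4 held a library that stood far from the others by Dixon's ratio at its 95% critical value, where chance alone gives about 1 in 20. Pcca reached 138 CPM in RIAKI library 5, and the nearest of the other RIAKI libraries was at 68.1 CPM. Kynu was at 2.21 CPM in RIAKI library 6, from 4 reads, and at 0 in the other 5. Acmsd was at 20.8 CPM in control library 5, below the others at 30.2 to 34.3 CPM. Prodh2 was at 22.0 CPM in control library 3, and the nearest of the others was at 15.8 CPM.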

How the results depend on the processing

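Of 1167 values of single members under the alternatives, 1142 kept their direction and their side of the threshold, 19 lost the call (Hibch, Gldc, Oat and Ddo), 5 gained it (Got2 and Kynu) and 1 changed sign (Glud1, -0.023 without control library 2, in a range of -0.023 to 0.098 when each library was left out). Members called lower numbered 37 to 40 when each library was left out and members called higher stayed at 1. The number of genes outside the routes called lower was 1 with library totals alone and 1 to 3 without single libraries. Without the 9 members that share exon bases with another gene, 0 members were called higher by edgeR, since Arg2 is among them. With S3 markers in place of S1 and S2 markers, 29 members were called higher. Pairs past the threshold numbered 8 to 11 without single libraries, and the 6 pairs with groups that did not overlap passed in each of these. Sign changes were seen only in pairs that did not pass: Gldc over Gcsh (-0.039 at a pseudocount of 0.5 CPM, and -0.28 to 0.33 when each library was left out), Bckdha over Bckdhb (-0.086 at 5 CPM, and -0.033 to 0.27 when each library was left out), Sardh over Dmgdh (-0.20 at 5 CPM) and Prodh over Prodh2 (-0.019 at 5 CPM). The causes were not tested. Replicate numbers were not used as pairs in the main fit. Of 6 same-numbered pairs 3 correlated above 0.1 (range -0.17 to 0.32), and 2 RIAKI libraries correlated best with the control of their own number. With the replicate block Got2 was lower (-0.41, adjusted p = 0.0387, edgeR with Benjamini-Hochberg adjustment), and no other member's call changed. Added after the data were seen, the 8 libraries not numbered 1 or 2 gave -0.59 for Got2 (adjusted p = 0.0111) and 0.07 for Got1, and the calls of Gldc, Oat and Ddo were lost (adjusted p = 0.0633, 0.0931 and 0.154). Library totals alone moved the median of all genes to 0.05. Low depth limits Kynu, which had 19 exon reads over the 12 libraries.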

Other observations

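Grouped by the compartment in which the enzyme mainly works, an assignment made after the values had been seen, 24 of 27 mitochondrial members were lower, 1 was higher and 2 did not pass, with a median log2 fold change of -1.37. Of 15 cytosolic members 13 were lower and 2 did not pass, with a median of -1.74, and the 2 peroxisomal oxidases Dao and Ddo were both lower (-1.84 and -0.82). Hykk (-3.49) was not assigned to a compartment. Over all genes tested, 18.8% were called lower and 17.4% higher. The difference between compartments was not tested. As shares of the members' summed mean CPM, the branched-chain genes made up 39.9% in RIAKI and 35.3% in controls, the arginine or proline genes 28.8% in RIAKI and 30.4% in controls, and the tryptophan genes 3.13% in RIAKI and 5.13% in controls. Within the arginine or proline route, the range of log2 fold changes ran from -2.29 for Ass1 to 3.38 for Arg2, which act before and after arginine.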
